A study of Mus musculus with 10 samples.

Results

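The class III receptor tyrosine kinases are the 5 related receptors encoded by Kit, Flt3, Csf1r, Pdgfra and Pdgfrb. On the mouse arrays of this study they were represented by 8 of 41174 probes, chosen because the array files name one of these 5 genes, of 27218 gene names in all: 1 probe each for Kit, Flt3 and Pdgfrb, 2 for Pdgfra and 3 for Csf1r. The arrays carried RNA of 5 groups with 2 arrays each. The 3 leukemia groups (B-ALL-686, B-ALL-713 and B-ALL-760) were B cell acute lymphoblastic leukemias, each taken from the lymph node of 1 Ebf1+/- Pax5+/- mouse. The dHet pro-B cells carried the same Ebf1+/- Pax5+/- genotype together with Rag2-/-. They were grown from c-Kit-positive fetal liver cells on OP9 feeder cells with 5 ng/ml IL-7, 10 ng/ml Flt3 ligand and 10 ng/ml stem cell factor, so that the culture held the ligands of 2 of the receptors. The wt pro-B cells came from the bone marrow of Ebf1+/+ Pax5+/+ control mice, where Fraction BC had been sorted. Leukemia, tissue, genotype, culture and the choice of c-Kit-positive cells therefore differ together between the groups, and their parts in a difference cannot be told apart. The labels do not say whether the 2 arrays of a group came from separate animals, cultures or labellings, so p-values between single groups measure the spread between arrays, which may be technical.

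Class III receptors have 5 immunoglobulin-like domains outside the cell and a tyrosine kinase split by an insert inside it, and they pair and phosphorylate each other when a ligand binds. KIT binds stem cell factor and sustains blood stem cells, mast cells and early pro-B cells. FLT3 binds Flt3 ligand and is a receptor of multipotent and early lymphoid progenitors. CSF1R binds CSF1 and IL-34 and is the receptor of monocytes and macrophages. In mouse B cell precursors the transcription factor PAX5 is known to repress Flt3 and Csf1r. The platelet-derived growth factor receptors PDGFRA and PDGFRB act mainly in mesenchymal and mural cells.

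What a probe reads of its gene is 1 stretch of 60 bases, and for 2 of the genes such a stretch is shown here. One of these probes, of Flt3, was well above background on every array, and the other, of Pdgfra, on none. The Flt3 probe (A_51_P203916) lies on mm9 at chr5:148159595-148159654, minus strand, and begins at base 2451 of the transcript the file names. The upstream Pdgfra probe (A_52_P264283) lies at chr5:75559613-75559672, plus strand, and begins at base 281.
Flt3 probe A_51_P203916: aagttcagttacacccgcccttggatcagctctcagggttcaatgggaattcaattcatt
Pdgfra probe A_52_P264283: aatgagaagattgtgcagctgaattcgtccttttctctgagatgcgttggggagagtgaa
The Kit probe (A_51_P355906, on chromosome 5 from 76052287 to 76052346) was printed in 10 spots on each array.

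The 3 Csf1r probes follow each other along chromosome 18, and they are called upstream, middle and downstream here. The upstream probe (A_52_P570471) runs from 61269422 to 61269481 and begins at transcript base 483. The middle probe (A_52_P602091) begins at base 2871, and its 60 bases spread over 361 genomic bases, from 61289398 to 61289758. The downstream probe (A_51_P365885) runs from 61290384 to 61290443 and begins at base 3465. The second Pdgfra probe (A_51_P345649, 10 spots per array, base 6211) and the Pdgfrb probe (A_51_P150964, base 5283) lie far along their transcripts. Exon and UTR annotation on mm9 was not used here.

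Levels are given as log2 processed signal minus the 75th percentile of the same array, so that 0 is the signal of a bright gene, and each is relative to its own array. Levels of different probes are not comparable with each other. A probe was well above background on an array when the scanner software marked it so, and it was tested when this held on all arrays of at least 1 group, as for 22300 probes. Of the 8 receptor probes 4 met this, namely Kit, Flt3 and the middle and downstream Csf1r probes. The percentage of all probes well above background was lowest on replicate 1 of leukemia 686 (35.7%), against 42.1% to 52.4% on the other arrays. The lowest level counted as well above background lay between -3.75 and -2.13 on replicate 1 of the leukemias and between -4.73 and -4.02 on the other arrays, so that dim probes were followed less far on the first. Replicate 1 of the 3 leukemias lay on slide 1, scanned on day 1. Replicate 2 lay on slide 2 and the 4 pro-B arrays on slide 3, both scanned on day 2. Between leukemias and pro-B cells the slide and the group therefore cannot be told apart, while scan day can. Replicates correlated across probes at r between 0.945 and 0.993, and the dHet pro-B arrays differed in the sex-linked gene Xist (level -5.96 on replicate 1 and 5.17 on replicate 2), so each held RNA of its own. Xist and the Y-linked gene Ddx3y also separated leukemia 760 (Xist 3.59 and 4.48, Ddx3y -3.13 and -6.34) from 686 (Xist -1.26 and -6.83, Ddx3y 1.401 and 1.63) and 713 (Xist -2.51 and -6.78, Ddx3y 1.63 and 1.41). On slide 1, the first value of each pair, the lower of both genes still stood above the background limit of its array in all 3 leukemias, and on slide 2 in none of them. Results on slide 2 alone, or on leukemia arrays of day 2 alone, are therefore given beside the receptors' results. The 12 pro-B cell marker genes were well above background on every array but for 1 gene on replicate 1 of leukemia 686.

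**Figure D1:**
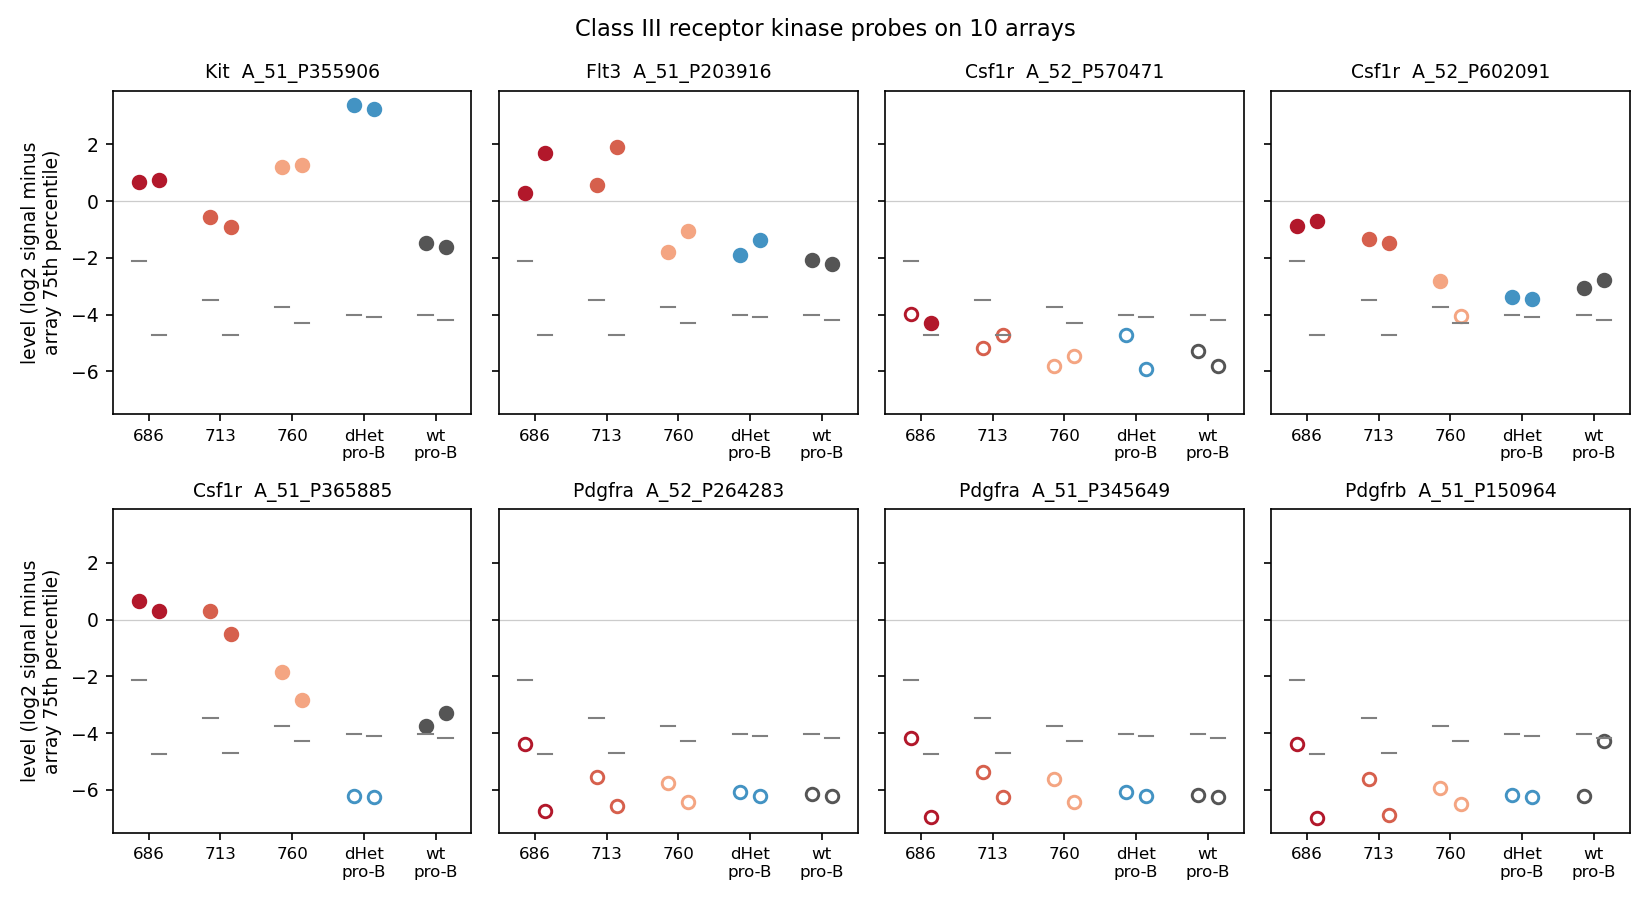
Levels (log2 processed signal minus the array's 75th percentile) of the 8 receptor probes on the 10 arrays, with replicate 1 left of replicate 2 in each group. Filled points were well above background, open points were not, and the grey dash is the lowest level counted as well above background on that array. Kit is filled in all groups and highest in dHet pro-B cells, while every Pdgfra and Pdgfrb point is open.

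The receptors' calls stood as follows beside those of all probes, at an adjusted p of 0.05 in limma. In the leukemias against wt pro-B cells 3 of the 4 tested probes passed, all higher, where 58.7% of all probes passed, 27.7% higher and 31% lower. Against dHet cells 2 of 4 passed, Kit lower and the downstream Csf1r probe higher, where 46.7% of all probes passed, 19.3% higher and 27.4% lower. In dHet against wt cells 2 of 4 passed, Kit higher and the downstream Csf1r probe lower, where 27.2% of all probes passed, 13.9% higher and 13.2% lower. Counts of this size are therefore no result about the receptors in these comparisons, where many probes passed. Calls were scarcer between leukemias. In 713 against 686, 1 of 4 passed (Kit, lower), where 7.16% of all probes passed, 4.26% higher and 2.91% lower. In 760 against 686, 2 of 4 passed (both Csf1r probes, lower), where 4.58% passed, 2.1% higher and 2.48% lower. In 760 against 713, 4 of 4 passed (Kit higher, the others lower), where 13.1% passed, 5.79% higher and 7.3% lower. The 4 probes are not independent of each other, since 2 of them read Csf1r. The median change of all probes was -0.07 for the leukemias against wt, -0.15 against dHet and 0.10 for dHet against wt cells. For single leukemias the share of all probes that passed was 46.9% (686), 44.3% (713) and 50% (760) against wt cells, and 35.7% (686), 32.3% (713) and 35.7% (760) against dHet cells.

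Kit was high in the dHet pro-B cells, intermediate in the leukemias and low in wt pro-B cells, and it was well above background on 10 of 10 arrays. Its level was 0.69 and 0.73 in leukemia 686, -0.55 and -0.92 in leukemia 713, and 1.19 and 1.26 in leukemia 760. It was 3.38 and 3.24 in dHet pro-B cells and -1.47 and -1.62 in wt pro-B cells. No leukemia array reached the dHet pro-B arrays, and every leukemia array lay above both wt arrays. The 2 arrays of a group differed by 0.04 to 0.37 on the log2 scale, which was less than any gap between neighbouring groups.

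Kit rose 3.85-fold in the leukemias against wt pro-B cells (mean level 0.40 over 3 mice and -1.55 over 2 wt arrays, log2 change 1.95 ± 0.56 SE, adjusted p = 0.0261). Against dHet pro-B cells it was 7.53-fold lower in the leukemias (-2.91 ± 0.56, adjusted p = 0.00863). Between the pro-B groups it was 29.0-fold higher in dHet than in wt cells (4.86 ± 0.19, n = 2 arrays each, adjusted p = 1.65e-05). With the leukemia arrays of scan day 2 alone, the leukemias gave 1.90 ± 0.62 against wt cells (adjusted p = 0.0434) and -2.96 ± 0.62 against dHet cells (0.0135). The dHet culture had been started from cells selected for c-Kit, the protein of this gene, and held its ligand. The call against wt cells was lost without leukemia 686 (adjusted p = 0.0694), without wt replicate 1 (0.102) or 2 (0.118) and with scaling over probes detected on all arrays (0.0527), and that against dHet cells was lost without dHet replicate 1 (0.0591) or 2 (0.0521). Over 21 alternatives adjusted p lay between 9.35e-05 and 0.118 for the leukemias against wt cells, between 2.95e-05 and 0.0591 against dHet cells, and between 1.00e-06 and 0.000663 for dHet against wt cells, where the change was 4.00 in the authors' deposited table and 3.94 with normexp.

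The leukemias also differed from each other in Kit. Kit was 3.91-fold higher in leukemia 760 than in leukemia 713 (1.97 ± 0.19, adjusted p = 0.000984), and 2.72-fold lower in leukemia 713 than in leukemia 686 (-1.44 ± 0.19, adjusted p = 0.00701). Leukemia 760 did not pass against leukemia 686 (0.52 ± 0.19, adjusted p = 0.227). In order of level the groups ran from dHet pro-B through leukemias 760, 686 and 713 to wt pro-B, and of the 4 neighbouring pairs only 760 and 686 did not differ beyond their spread. Leukemia 713, the lowest, still rose above wt cells (0.81 ± 0.19, adjusted p = 0.0123), and leukemias 686 and 760 rose by 2.25 and 2.77. Against dHet cells each leukemia was lower, 16.6-fold in 713 (-4.05), 6.08-fold in 686 (-2.60) and 4.24-fold in 760 (-2.08). Within slide 1 the difference of 760 minus 713 was 1.75 and within slide 2 it was 2.19, and for 713 minus 686 the same values were -1.24 and -1.65. The call for 713 against 686 was lost with scaling on the array median (-1.14, adjusted p = 0.107) and without the filter on dim probes (0.0603), within a range of 0.000975 to 0.107.

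Of 12 genes listed for mast cells and basophils, which also carry KIT, 4 were tested. In the leukemias 2 were higher and 0 lower both against wt cells (median change 1.84) and against dHet cells (2.33), and in dHet against wt cells 0 were higher and 1 lower. Of all genes, by their brightest probe, 31.3% were higher and 27.6% lower in the leukemias against wt cells, 21.8% and 24.5% against dHet cells, and 15.6% and 14.2% in dHet against wt cells. The 12 genes had a summed linear level of 0.676 to 2.11 on the leukemia arrays, 0.286 to 0.312 on the dHet arrays and 0.493 to 0.560 on the wt arrays. This sum was higher in the leukemias than in wt cells, as Kit was, and lowest in the dHet cells, where Kit was highest. It includes signal below the background limit, and Hdc was its brightest gene in every group. Of the 12 genes 1 to 5 were well above background on the leukemia arrays, with 1 on each array of 760. On the dHet arrays 0 to 1 were, and on each wt array 1 was. Among the leukemias the sum ran opposite to Kit. It was highest in 713 (2.11 and 1.68), which had the lowest Kit, and lowest in 760 (0.903 and 0.676), which had the highest. The part of mast cells in the Kit levels was not tested. The mast cell genes Mcpt1, Mcpt2, Mcpt8, Ms4a2, Tpsb2, Tpsab1 and Prss34 were well above background on 0 arrays. The list of 10 blood stem and progenitor genes summed to 26.5 to 116 in the leukemias, 24.4 to 26.1 in dHet and 16.7 to 17.8 in wt cells, with Procr, Mecom and Gata2 among those well above background on 0 arrays. This sum was lowest in wt cells, as Kit was. It was highest in leukemia 713 (116 and 75.6), which had the lowest Kit of the leukemias. It is set mainly by Ly6a and Cd48, the only genes of this list well above background on all 10 arrays. Their mean levels were 5.97 and 4.93 in leukemia 713, 3.23 and 3.96 in dHet cells, and 1.43 and 3.83 in wt cells. The part of stem and progenitor cells in the Kit levels was not tested.

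Flt3 was high in leukemias 686 and 713 and low in leukemia 760 and in both kinds of pro-B cell. Its level was 0.29 and 1.70 in leukemia 686, 0.56 and 1.92 in leukemia 713, and -1.80 and -1.04 in leukemia 760. It was -1.90 and -1.38 in dHet pro-B cells and -2.09 and -2.22 in wt pro-B cells. The 4 arrays of leukemias 686 and 713 lay above all others, and leukemia 760 overlapped the dHet arrays but not the wt arrays. The 3 leukemias were each higher on their slide 2 array than on slide 1, by 1.41 in leukemia 686, 1.35 in leukemia 713 and 0.76 in leukemia 760, so that this probe differed more between the slides than Kit did.

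Flt3 rose 5.39-fold in the leukemias against wt pro-B cells (mean level 0.27 and -2.16, log2 change 2.43 ± 0.80 SE, adjusted p = 0.0420). Against dHet pro-B cells the change was 1.91 ± 0.80 and did not pass (adjusted p = 0.0992), nor did dHet against wt cells (0.52 ± 0.59, adjusted p = 0.569). Singly, leukemia 713 rose 10.52-fold (3.40 ± 0.59, adjusted p = 0.00402) and leukemia 686 rose 8.91-fold against wt cells (3.16 ± 0.59, adjusted p = 0.00469). Leukemia 760 did not pass (0.74 ± 0.59, adjusted p = 0.327). Against dHet cells 713 rose by 2.87 ± 0.59 (adjusted p = 0.0104) and 686 by 2.63 ± 0.59 (0.0129), and 760 gave 0.22 ± 0.59 (0.805). With the leukemia arrays scanned on the day of the pro-B arrays alone, the change against wt cells was 3.02 ± 0.90 (adjusted p = 0.0325), and against dHet cells it was 2.50 ± 0.90 (adjusted p = 0.0693).

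The call against wt cells was lost without leukemia 686 (2.07, adjusted p = 0.105), leukemia 713 (1.95, 0.0858), either dHet array (2.43, 0.0692), wt replicate 1 (2.50, 0.143) or wt replicate 2 (2.36, 0.157), with scaling over probes detected on all arrays (2.06, 0.0703) and without the filter on dim probes (0.0614). Without leukemia 760 the change against dHet cells passed (2.75, adjusted p = 0.00163). The change against wt cells was 1.75 in the authors' deposited table, 1.79 with normexp and 3.28 without leukemia 760, and passed in each. Over all alternatives adjusted p lay between 0.000102 and 0.157 for the leukemias against wt cells and between 0.000268 and 0.317 against dHet cells.

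Between leukemias, Flt3 was 6.31-fold lower in 760 than in 713 (-2.66 ± 0.59, adjusted p = 0.0265). The difference of 760 minus 713 was -2.36 within slide 1 and -2.96 within slide 2. Leukemia 760 against leukemia 686 gave -2.42 ± 0.59 (adjusted p = 0.0770), with -2.09 within slide 1 and -2.74 within slide 2. With the scan day as a block this pair passed (adjusted p = 0.00256), as it did with the replicate number as a block (0.0210), within a range of 0.00248 to 0.329. Leukemias 713 and 686 could not be separated (0.24 ± 0.59, adjusted p = 0.888). Of the neighbours in the order 713, 686, 760, dHet and wt, no pair passed. The call for 760 against 713 was lost in 9 of 21 alternatives, among them those without leukemia 713 replicate 2 (-1.98, adjusted p = 0.128), leukemia 760 replicate 1 (-2.28, 0.135), leukemia 760 replicate 2 (-3.04, 0.0558), either wt array (0.0572) or either dHet array (0.05004), within a range of 0.000691 to 0.135.

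Of 10 genes listed for dendritic cells, which also carry FLT3, 6 were tested. In the leukemias against wt cells 0 were higher and 5 lower, against dHet cells 0 were higher and 2 lower with a median change of 0.37, and in dHet against wt cells 0 were higher and 4 lower. The shares of all genes are those given for the mast cell list. Their summed level over 10 genes was 1.38 to 4.69 in the leukemias, 6.91 to 7.90 in dHet and 9.26 to 10.3 in wt pro-B cells. The list includes Flt3l, the ligand gene reported below, so its falls against wt cells count that of Flt3l too. Flt3l was its brightest gene in each leukemia (mean level 0.39 to 1.66) and in wt cells (2.26). Ccr9 was its brightest in dHet cells (2.38). Zbtb46, Clec9a and Cd209a, markers of dendritic cell subsets, were well above background on 0 arrays. The part of dendritic cells in the Flt3 levels was not tested.

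**Figure D2:**
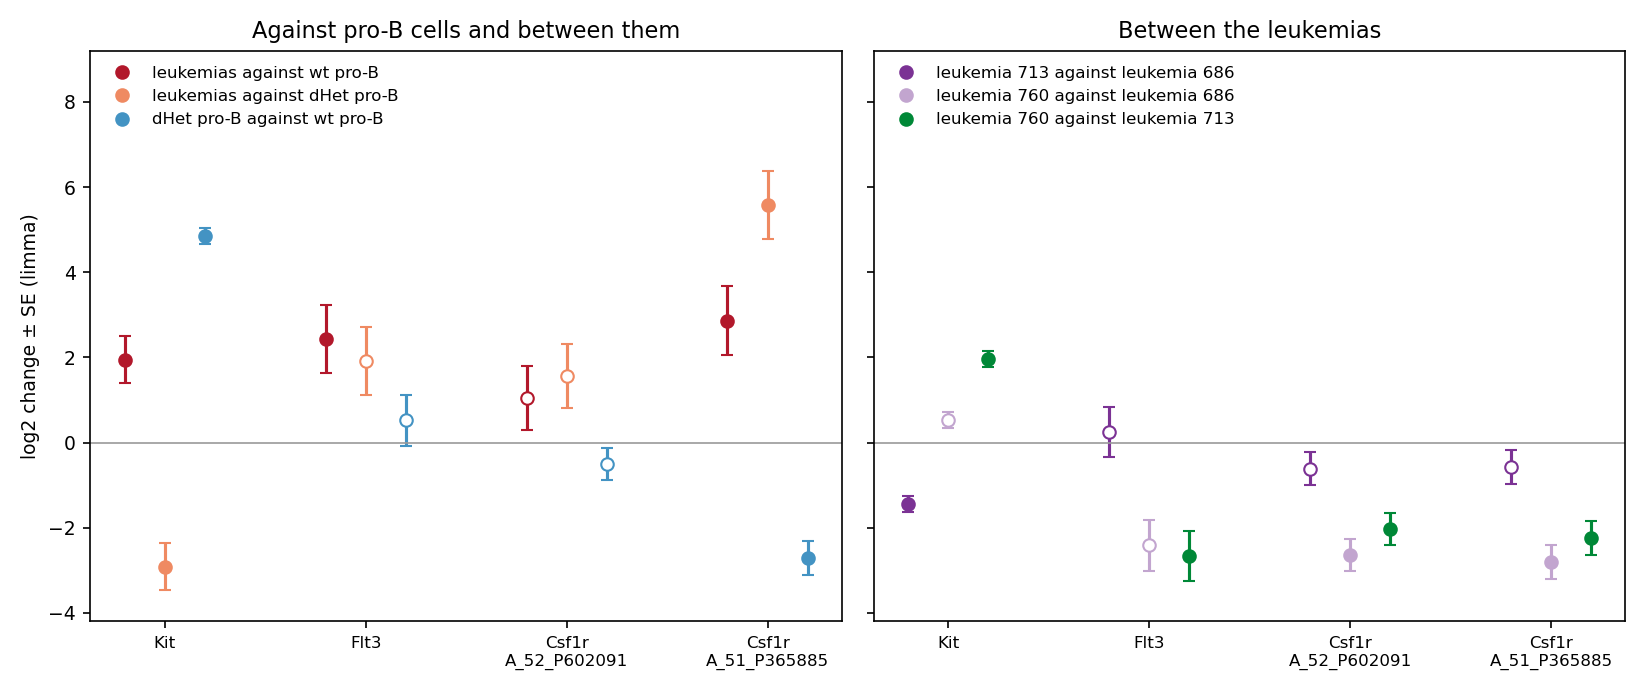
Log2 change with its standard error from limma for the 4 receptor probes tested, for the leukemias and dHet cells against pro-B cells (left) and between leukemias (right). Filled points passed at an adjusted p of 0.05 and open points did not. Kit shows the largest rise in dHet against wt pro-B cells, at 4.86, and both Csf1r probes lie near or below -2 for leukemia 760 against the other leukemias.

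Csf1r was read by 3 probes that differed in their calls. At the downstream probe the level was 0.64 and 0.31 in leukemia 686, 0.29 and -0.50 in leukemia 713, and -1.84 and -2.84 in leukemia 760. It was -6.20 and -6.26 in dHet pro-B cells, where the probe was not well above background on either array, and -3.74 and -3.30 in wt pro-B cells. All 6 leukemia arrays lay above both wt arrays, and the wt arrays above both dHet arrays. At the middle probe the level was -0.86 and -0.71 in leukemia 686, -1.32 and -1.47 in leukemia 713, and -2.80 and -4.06 in leukemia 760. It was -3.39 and -3.47 in dHet and -3.08 and -2.77 in wt pro-B cells, and it was well above background on all but replicate 2 of leukemia 760. Leukemias 686 and 713 lay above every pro-B array at this probe, and leukemia 760 overlapped both kinds of pro-B cell. The upstream probe was well above background on 1 of 10 arrays, replicate 2 of leukemia 686 (-4.30), and was not tested.

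At the downstream probe Csf1r rose 7.26-fold in the leukemias against wt pro-B cells (mean level -0.66 and -3.52, log2 change 2.86 ± 0.81 SE, adjusted p = 0.0250). Against dHet pro-B cells it was at least 10.54-fold higher, counted from the background limit of the dHet arrays (means -0.66 and -6.23, adjusted p = 0.00362). In dHet against wt pro-B cells it was at least 1.45-fold lower (means -6.23 and -3.52, adjusted p = 0.00308). The middle probe passed in none of the 3 comparisons: the changes were 1.06 ± 0.75 (adjusted p = 0.268), 1.56 ± 0.75 (0.138) and -0.50 ± 0.38 (0.381). With the leukemia arrays of scan day 2 alone the downstream change against dHet cells still passed (adjusted p = 0.00719). Taken singly against wt cells, leukemia 686 rose at both probes (3.99 ± 0.40 downstream and 2.14 ± 0.38 in the middle) and so did leukemia 713 (3.41 ± 0.40 and 1.53 ± 0.38). Leukemia 760 rose downstream (1.18 ± 0.40, adjusted p = 0.0430) and did not pass in the middle (-0.51 ± 0.38, adjusted p = 0.297). Against dHet cells the downstream probe was at least 23.1-fold higher in 686, at least 15.4-fold in 713 and at least 3.28-fold in 760. The middle probe rose by 2.64 ± 0.38 in 686 and 2.03 ± 0.38 in 713, and in 760 it gave 0.00 ± 0.38 (adjusted p = 0.995).

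The downstream call against wt cells was lost without leukemia 686 (2.29, adjusted p = 0.0520), leukemia 713 (2.58, 0.0581), wt replicate 1 (2.64, 0.126) or wt replicate 2 (3.08, 0.0874), and with only the leukemia arrays of the pro-B scan day (2.50, 0.0561), within a range of 0.000138 to 0.126. Its size was smaller in the authors' deposited table (1.45, adjusted p = 0.0326) and with normexp correction (1.58, 0.0238). Against dHet cells these gave 1.75 (0.0208) and 1.98 (0.0135), below the bound given above, and without leukemia 760 the changes were 3.70 against wt and 6.42 against dHet cells. The fall in dHet against wt cells was lost in the authors' deposited table (-0.31, adjusted p = 0.390), with normexp correction (-0.40, 0.258) and with undetected values set to the array's background limit (-0.54, 0.400), within a range of 0.000123 to 0.400. Without leukemia 760 the middle probe passed against wt (1.84, adjusted p = 0.00327) and against dHet cells (2.34, 0.00270), the lowest of ranges that reached 0.549 and 0.329.

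Both Csf1r probes separated leukemia 760 from the others. Downstream, 760 was 7.03-fold lower than 686 (-2.81 ± 0.40, adjusted p = 0.0107) and 4.70-fold lower than 713 (-2.23 ± 0.40, adjusted p = 0.0109). In the middle it was 6.26-fold lower than 686 (-2.65 ± 0.38, adjusted p = 0.0111) and 4.10-fold lower than 713 (-2.04 ± 0.38, adjusted p = 0.0131). The sign held within both slides at each probe, with differences between -3.15 and -2.13 downstream and between -3.35 and -1.48 in the middle. Leukemias 713 and 686 did not pass at either probe (adjusted p = 0.499 and 0.447). Both were smaller in the authors' deposited table, at -1.64 (760 against 686) and -1.12 (760 against 713) downstream and -0.95 and -0.63 in the middle, and all 4 passed there, as they did with normexp. The middle call for 760 against 686 was lost without the filter on dim probes (adjusted p = 0.0515), within a range of 0.00204 to 0.0515. The call for 760 against 713 was lost without leukemia 713 replicate 1 at both probes (-1.84, adjusted p = 0.0541 downstream and -1.96, 0.0616 in the middle), and at the middle probe also without leukemia 713 replicate 2 (-2.11, 0.0567) and without the filter on dim probes (0.0551).

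Markers of myeloid cells, which carry CSF1R, were lowest in sum in leukemia 760, as Csf1r was among the leukemias. The summed linear level of 23 myeloid genes was 117 and 150 in leukemia 686, 73.9 and 70.5 in leukemia 713, and 24.9 and 24.2 in leukemia 760. It was 33.1 and 36.0 in dHet pro-B and 98.9 and 173 in wt pro-B cells. The wt cells thus overlapped leukemia 686 in myeloid sum with Csf1r levels far below it at both probes, and leukemia 760 had a sum below that of the dHet cells with a downstream level above theirs. The linear sum is set mainly by its brightest genes, which were Lyz2 in leukemia 686 (mean level 6.42) and S100a9 in wt cells (6.19). Genes of the list that were well above background in leukemia 760 or dHet cells went either way between them. Lyz2, the brightest in both, was lower in 760 (3.63 and 4.25), as were Lyz1, Csf2ra, Itgam and S100a8. Marco, undetected in dHet cells, was higher in 760 (-0.12 and -5.02). So were Cd68 (-2.22 and -3.37), C1qb (-2.32 and -3.86), C1qa, C1qc, Mrc1, Ccr2, S100a9 and Ly6c1. The sum thus followed Lyz2 and not the genes that were higher. Among the 18 myeloid genes tested, 0 were higher and 9 lower in leukemia 760 than in 686, where 2.33% of all genes were higher and 3.01% lower by their brightest probe. Against 713, 0 were higher and 11 lower in leukemia 760, where 6.52% of genes were higher and 8.3% lower. In 713 against 686 the myeloid genes went both ways, with 3 higher and 2 lower (median change 0.31). Of all probes 4.26% were higher and 2.91% lower there. In the leukemias against wt pro-B cells 2 of the 18 were higher and 6 lower (31.3% and 27.6% of genes), and against dHet pro-B cells 7 were higher and 2 lower (21.8% and 24.5%). In dHet against wt cells 0 were higher and 13 lower (15.6% and 14.2%). The part of myeloid cells in the Csf1r levels was not tested, and in bulk RNA fewer cells of a type and less RNA per cell cannot be told apart.

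Among the myeloid genes the largest falls of leukemia 760 against 686 were in S100a8, a neutrophil calcium-binding protein (at least 60.3-fold, adjusted p = 0.00516), S100a9, its partner (-6.03 ± 0.91), the macrophage receptor gene Adgre1 (at least 4.19-fold) and the lysozyme gene Lyz1 (-2.85 on the log2 scale). Against 713 they were in the IgG receptor Fcgr1 (at least 16.3-fold), Ly6c1 (-3.25 on the log2 scale), and the complement genes C1qc (-2.08 ± 0.20) and C1qa (-1.99). Against dHet pro-B cells the scavenger receptor Marco was at least 20.3-fold higher in the leukemias, C1qc at least 4.11-fold and the mannose receptor Mrc1 at least 3.25-fold, and none of these 3 was well above background on a dHet array. Cd14, Csf3r and Elane were well above background on 0 of 10 arrays.

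**Figure D3:**
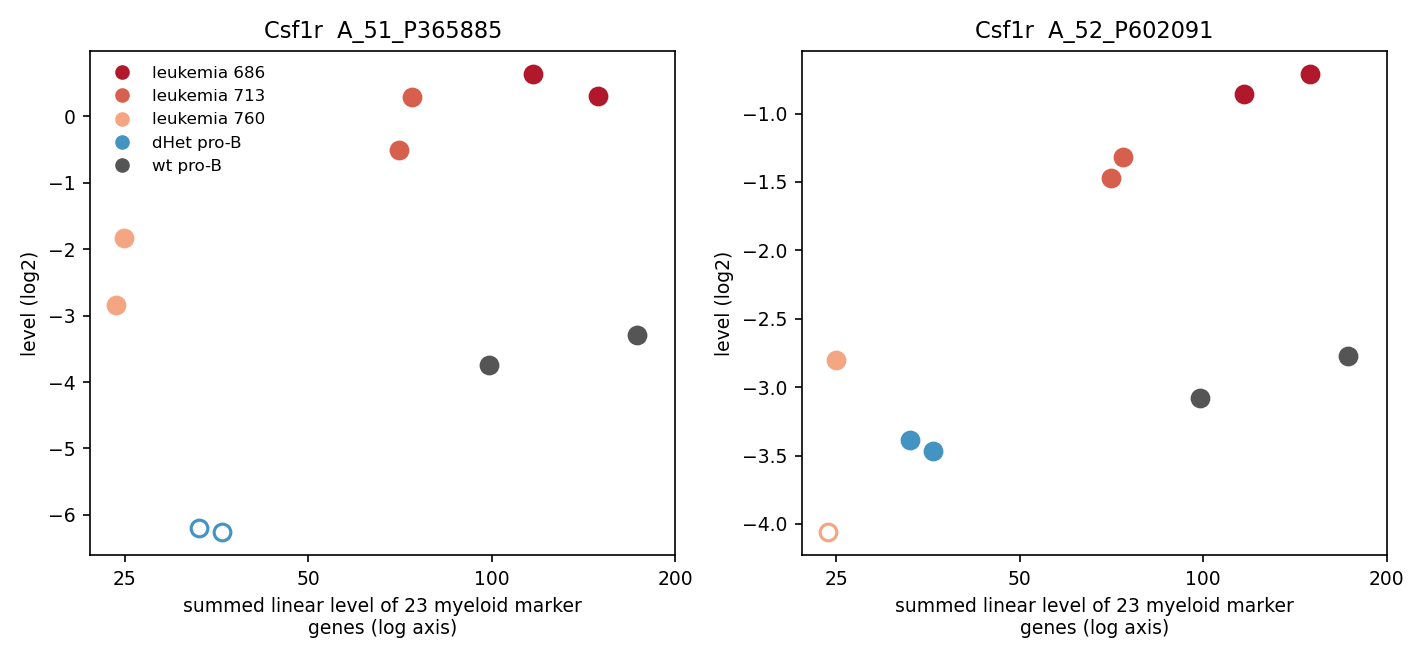
Level (log2) of Csf1r at the downstream probe (left) and the middle probe (right) against the summed linear level of 23 myeloid marker genes, 1 point per array and open where Csf1r was not well above background. Among the leukemias 686, 713 and 760 both fall together, from sums of 117 and 150 to 24.9 and 24.2, while the wt pro-B arrays have sums of 98.9 and 173 with low Csf1r.

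Pdgfra and Pdgfrb were not detected in any group. Neither Pdgfra probe was well above background on any of the 10 arrays, and their levels ran from -6.75 to -4.38 (upstream probe) and from -6.95 to -4.19 (downstream probe). The Pdgfrb probe was likewise well above background on 0 arrays, with levels from -7.00 to -4.28. The highest values lay on replicate 1 of leukemia 686, the array with the highest background limit, and, for Pdgfrb, on wt replicate 2, where the level was 0.09 below the limit. None of the 3 probes was tested, and no fold is given. The 18 genes listed for stroma and OP9-like feeder cells, which carry these receptors, summed to 0.554 to 2.05 in the leukemias, 0.737 to 0.870 in the dHet cells that had been grown on feeders and 0.645 to 0.756 in wt cells. On the leukemia arrays 0 to 8 of the 18 were well above background, most on replicate 2 of leukemia 713, against 4 on each dHet array and 2 and 4 on the wt arrays. The sums include signal below the background limit. Replicate 1 of leukemia 686 summed to 1.17, above both dHet arrays, with 0 genes well above background. Of the list 9 genes, the collagen gene Col1a1 and the chemokine gene Cxcl12 among them, were well above background on 0 arrays.

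Of the receptors' ligand genes, Flt3l was detected in every group, and Kitl, Il34, Pdgfb, Pdgfc and Pdgfd were well above background on 0 arrays. Flt3l had levels of 1.35 and 0.72 in leukemia 686, 1.96 and 1.35 in 713, 0.57 and 0.21 in 760, 0.95 and 0.92 in dHet pro-B and 2.33 and 2.20 in wt pro-B cells at its brighter probe. All leukemia and dHet arrays lay below both wt arrays. Flt3l fell 2.36-fold in the leukemias against wt cells (-1.24 ± 0.36, adjusted p = 0.0269) and 2.51-fold in dHet against wt cells (-1.33 ± 0.29, adjusted p = 0.0158). Its second probe passed in both as well (-1.15, adjusted p = 0.0433, and -0.93, 0.0126). Each of these calls at the brighter probe was lost in 6 of 21 alternatives, with adjusted p up to 0.142 and 0.0979. Leukemias against dHet cells did not pass at the brighter probe (0.09 ± 0.36, adjusted p = 0.846).

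Csf1, the ligand of CSF1R, had levels of -1.79 and -1.62 in leukemia 686, -0.45 and -0.67 in 713, -3.10 and -3.46 in 760, -0.28 and 0.01 in dHet pro-B and 0.07 and -0.16 in wt pro-B cells. It was lowest in leukemia 760, as Csf1r was among the leukemias, but it was higher in 713 than in 686, between which Csf1r did not pass. Csf1 fell 2.98-fold in 760 against 686 (-1.58 ± 0.21, adjusted p = 0.00936) and 6.61-fold against 713 (-2.72 ± 0.21, adjusted p = 0.000509), and it rose 2.22-fold in 713 against 686 (adjusted p = 0.0234). The leukemias together did not pass against wt (-1.81 ± 0.74, adjusted p = 0.0809) or dHet cells (-1.71 ± 0.74, adjusted p = 0.107). Pdgfa, a ligand of PDGFRA, was well above background at its brighter probe in 686, 713 and both pro-B groups, but not in leukemia 760. There it lay at least 6.16-fold below 686 (adjusted p in limma 0.0194) and at least 3.27-fold below 713 (0.0255). The arrays of 686 differed at this probe (-0.41 and -2.38). The second Pdgfa probe, which was not tested, passed the background limit on 1 array of each pro-B group and in no leukemia.

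**Figure D4:**
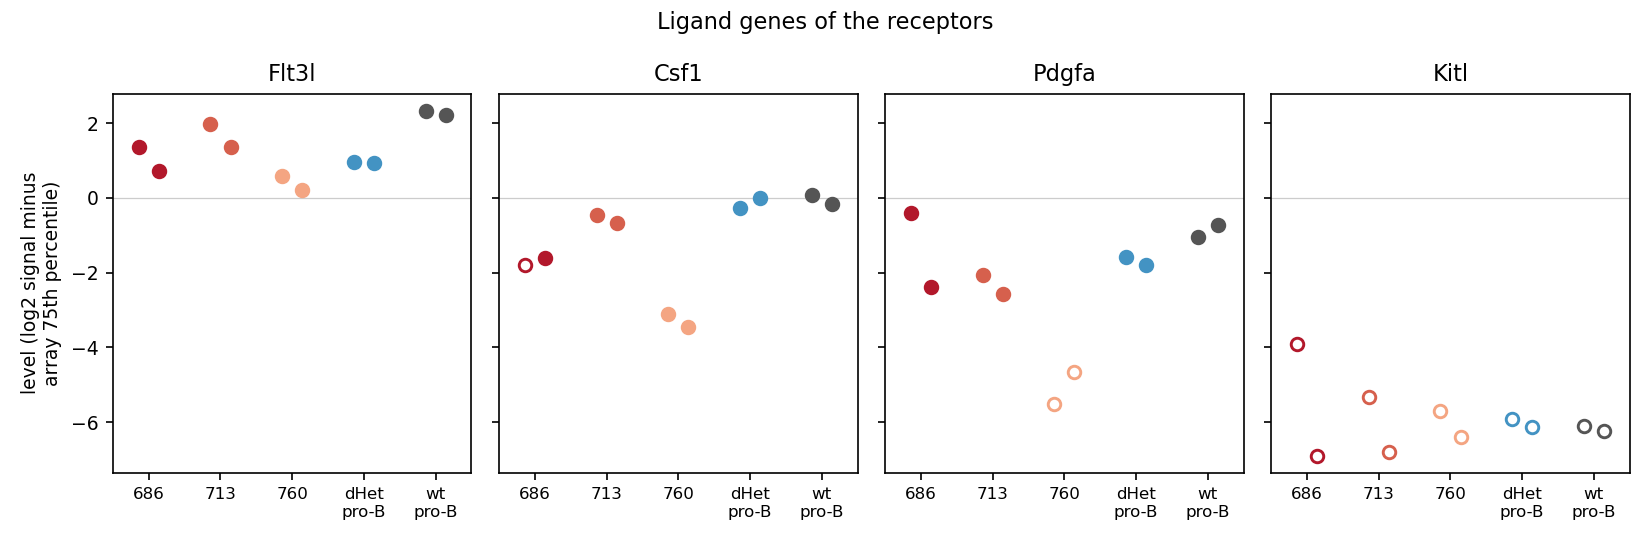
Levels (log2 processed signal minus the array's 75th percentile) of 4 ligand genes on the 10 arrays, replicate 1 left of replicate 2, filled where well above background. Flt3l is highest on the wt pro-B arrays (2.33 and 2.20), Csf1 and Pdgfa are lowest in leukemia 760, and Kitl is open throughout.

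The 44 signal carriers and inhibitors listed for these receptors were all tested. In the leukemias against wt cells 14 were higher and 11 lower, with a median change of 0.15, where 31.3% of genes were higher and 27.6% lower by their brightest probe. Dok2, an adaptor that damps receptor tyrosine kinase signals, rose by 5.18 ± 0.20 (adjusted p = 0.000161). The ubiquitin ligase gene Cblb fell by 3.66 ± 0.29. Grb10, an adaptor that binds receptor kinases, was at least 34.8-fold higher (adjusted p = 0.0278), yet replicate 2 of leukemia 713 (-4.42) lay within the wt range, and 7 of 21 alternatives lost this call. Against dHet cells 11 were higher and 16 lower, where 21.8% of genes were higher and 24.5% lower. The RAS activator Sos1 rose by 2.91 ± 0.16, and Pik3r1, the regulatory subunit of PI3-kinase, fell by 2.44 ± 0.30. Gab2, an adaptor of PI3-kinase signalling, was at least 1.18-fold lower, a call lost in 2 of 21 alternatives (adjusted p in limma up to 0.495). The phospholipase gene Plcg1 fell by 2.08 ± 0.64, a call lost in 5 of 21 alternatives.

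In dHet against wt pro-B cells 15 of the 44 were higher and 5 lower, with a median change of 0.31, where 15.6% of genes were higher and 14.2% lower. Dok2 rose by 4.52 ± 0.22 and Socs2, a feedback inhibitor of cytokine receptors, by 3.05 ± 0.25. Grb10 was at least 23.4-fold higher (adjusted p = 0.0191, lost in 5 of 21 alternatives). Dok2 and Grb10 were thus higher than in wt cells both in the leukemias and in the dHet cells, 2 comparisons that share the wt arrays.

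Of 24 transcription factors known to act on Kit, Flt3 or Csf1r, 20 were tested. In the leukemias against wt cells 4 were higher and 9 lower (median -0.98), where 31.3% of genes were higher and 27.6% lower. Against dHet cells 2 were higher and 9 lower (median -0.31, with 21.8% and 24.5% of genes), and in dHet against wt cells 2 were higher and 4 lower (median 0.08, with 15.6% and 14.2% of genes). Pax5 had levels of -3.59 and -6.57 in leukemia 686, -2.54 and -3.28 in 713, -5.30 and -5.94 in 760, -1.40 and -1.67 in dHet pro-B and -0.30 and -0.67 in wt pro-B cells, and among the leukemias it was well above background only in 713. It fell in the leukemias against wt (-4.05 ± 0.78, adjusted p = 0.00636) and dHet cells (-3.002 ± 0.78, adjusted p = 0.0241, lost in 4 of 21 alternatives), values that rest on levels below the background limit on 4 of 6 leukemia arrays. With those set to the limit the changes were -2.97 and -1.92 and still passed. In dHet against wt cells Pax5 did not pass (-1.05 ± 0.85, adjusted p = 0.416). Tal1, a transcription factor of blood stem cells, takes part in Kit transcription. In the leukemias it rose by 3.95 ± 0.32 against wt and by 2.17 ± 0.32 against dHet cells. In dHet against wt cells it rose by 1.78 ± 0.23. The immediate early factor Egr1 fell by 5.67 ± 0.43 in the leukemias and by 3.93 ± 0.16 in dHet cells, each against wt. Ikzf1, a lymphoid factor, fell by 3.28 ± 0.12 in the leukemias and by 2.16 ± 0.26 in dHet cells, each against wt, and the myeloid and B cell factor Irf8 fell by 2.34 ± 0.43 in dHet against wt cells. Ets1 fell by 2.37 ± 0.26 in the leukemias against dHet cells. Spi1, which encodes the PU.1 factor that drives Csf1r in myeloid cells, did not pass in the leukemias against wt (0.06 ± 0.32, adjusted p = 0.890) or dHet cells (-0.12 ± 0.32, adjusted p = 0.779).

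Of 47 other receptor tyrosine kinases on the array 19 were tested. In the leukemias 2 were higher and 9 lower against wt cells (median -0.77, with 31.3% and 27.6% of genes), and 1 was higher and 10 lower against dHet cells (median -0.999, with 21.8% and 24.5%). In dHet against wt cells 5 were higher and 3 lower (median 0.42, with 15.6% and 14.2%). The collagen receptor Ddr1 was at least 5.80-fold lower in the leukemias and at least 6.69-fold lower in dHet cells, each against wt. The insulin-like growth factor receptor Igf1r was well above background in the leukemias on replicate 1 of 686 alone. It passed as lower in the leukemias against wt and dHet cells, by -2.60 and -2.84 with the other leukemia arrays at their background limit. Kdr, a receptor of vascular growth factor, passed the background limit in the leukemias on replicate 2 of 686 and 713 alone. It passed as lower in the leukemias against dHet cells, by -3.53 with the other 4 arrays at their limit, and rose by 3.30 ± 0.38 in dHet against wt cells. Kit and Kdr were thus both highest in dHet pro-B cells.

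Over the 10 arrays Kit correlated negatively with the downstream Csf1r probe (r = -0.52) and little with Flt3 (r = -0.19), whereas Flt3 and the downstream Csf1r probe rose together (r = 0.75), as did both Csf1r probes (r = 0.85). The middle Csf1r probe gave -0.36 with Kit and 0.81 with Flt3. Downstream values of the dHet arrays, where Kit was highest, lay below background. Arrays of a group are not independent, so these values describe the pattern of 5 groups. Among 12145 genes with a symbol, the levels most like those of Kit over the 10 arrays were of Rragd (r = 0.992), Sh2d5, Arrb1, Gabarapl1 and Smim27 (0.971 to 0.974). Rragd encodes a RAG GTPase of nutrient signalling, and its level was 1.81 and 1.68 in leukemia 686, 0.92 and 0.69 in 713, 2.31 and 2.28 in 760, 3.55 and 3.44 in dHet pro-B and 0.27 and 0.60 in wt pro-B cells. For Flt3 they were Bcl2l15 (r = 0.959), Bcat1, Traf3ip1, Erv3 and Slc27a2. Bcl2l15, of the BCL2 family, had levels of -0.21 and 0.47 in 686, 0.09 and 0.32 in 713, -1.88 and -1.75 in 760, -2.54 and -2.51 in dHet pro-B and -3.19 and -3.33 in wt pro-B cells. For Csf1r at its downstream probe they were Clec4a3 (r = 0.990), Plekha3, 2310011J03Rik, Ccl5 and Icmt. Clec4a3, a C-type lectin, had levels of -1.28 and -1.46 in 686, -1.26 and -1.75 in 713, -2.37 and -3.66 in 760, -5.79 and -5.91 in dHet pro-B and -4.68 and -4.10 in wt pro-B cells, and the chemokine gene Ccl5 ran from 3.90 in leukemia 713 to -3.71 in dHet pro-B cells.

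**Figure D5:**
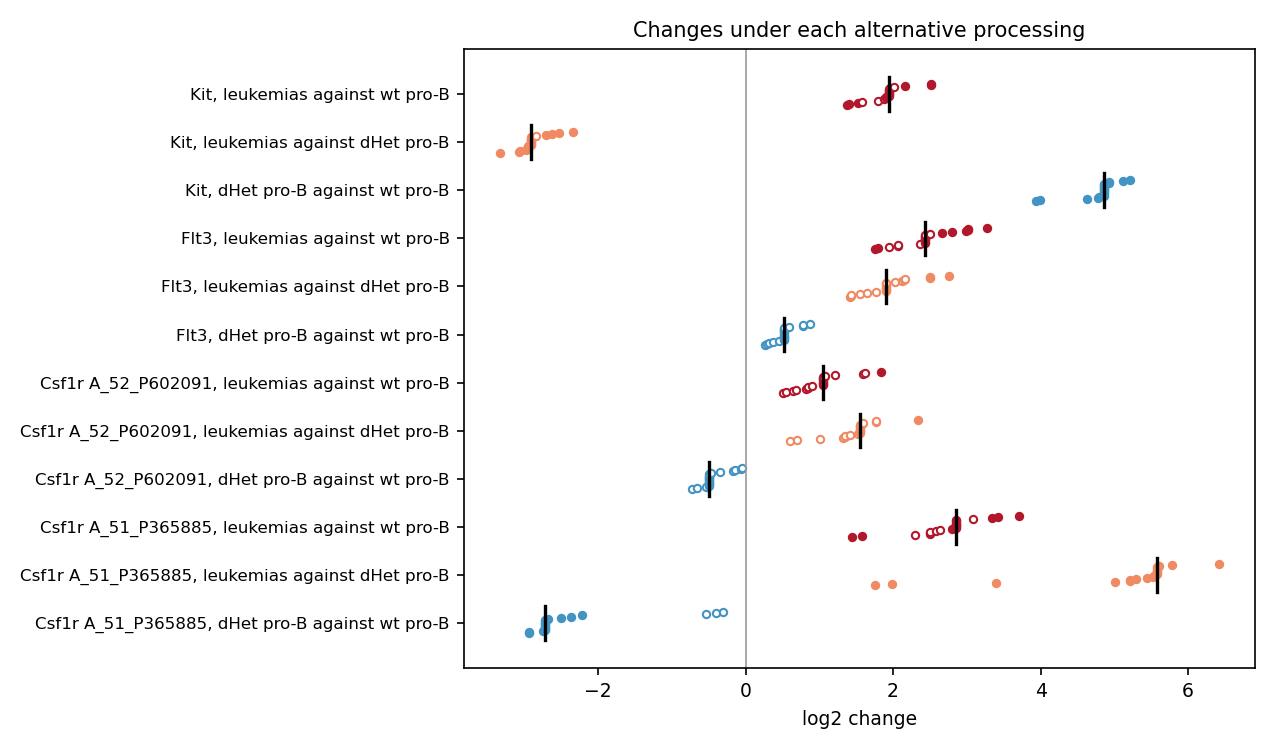
Log2 change of the 4 tested receptor probes in the leukemias and dHet pro-B cells against pro-B cells under 21 alternatives each (points, filled where adjusted p was under 0.05), with the reported value as a black bar. All changes of Kit keep their sign, from 1.38 to 2.51 for the leukemias against wt cells, and the downstream Csf1r probe ranges from 1.75 to 6.42 against dHet cells.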

How the data were processed

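RNA was hybridised to one-colour Agilent arrays, labelled with Cy3 per the labels. Per the file headers, the deposited scanner files hold intensity values from Feature Extraction 10.5.1.1, background-subtracted within each array, but 9.1 is the version in the submitters' processing notes. The authors' deposited value table holds log2 values of the same probes with column medians from 6.83 to 6.85. Its centring, background and floor are unknown, and it was used as an alternative only. From the scanner intensity, control and outlier spots were left out, spots of a probe averaged, log2 taken and the 75th percentile of each array subtracted. No spot was saturated. Tests used limma (version 3.58.1; R 4.3.3; data.table version 1.17.8), with p-values adjusted by Benjamini-Hochberg over 22300 probes, threshold 0.05. The leukemias were compared with pro-B cells over 7 values (the means of 3 mice and the 4 pro-B arrays), leaving 4 residual degrees of freedom, and single groups over 10 arrays, leaving 5. Where no array of a group was well above background, the fold is a bound against the lowest level well above background there. Ligands, markers and pathway genes are given by their brightest kept probe, naming at most the 4 largest passing changes per list and comparison. The fits were tested on simulated data with known changes. Their noise was independent between arrays, with no effect of mouse, slide or scan day, so they cannot test the calls against such effects. Alternatives changed the scaling, background correction, dim-probe and outlier filters, source of values, slide, scan day and replicate blocks, and left out single mice or arrays. The receptors and lists were chosen with earlier results of these data known. Deviations of equal replicate numbers correlated at 0.44 to 0.63 among leukemias, which share slides per the file headers, and at -0.04 to 0.08 otherwise. The number of arrays limits the precision. Some genes of the lists are not reported here by name.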

Additional observations from a re-analysis of the deposited data

Results flagged for a closer look

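Between single leukemias, 7 results for the receptors passed the test of the difference itself (limma, 10 arrays). Kit differed in 2 pairs, by -1.44 on the log2 scale in leukemia 713 against 686 and by 1.97 in 760 against 713. Flt3 differed by -2.66 in 760 against 713. Csf1r differed by -2.81 (downstream probe) and -2.65 (middle probe) in 760 against 686, and by -2.23 and -2.04 in 760 against 713. Leukemia 760 did not pass against 686 for Kit (0.52) or Flt3 (-2.42). The leukemias of a pair also differ as mice, and no second leukemia of any mouse was measured. Leukemia 760 differed from both others in the sex-linked genes Xist and Ddx3y as well, and in its pairs this cannot be told apart from the leukemia.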

How the results depend on the processing

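Each of the 24 receptor results (4 probes in 6 comparisons) was recomputed under 21 alternatives, 504 values in all, of which 447 kept direction and call, 38 lost the call, 17 gained it and 2 turned the sign. The sign turned for Flt3 in leukemia 713 against leukemia 686, which ranged from -0.46 to 0.95 when single arrays were left out. The dHet rise of Kit, the Csf1r rise at the downstream probe against dHet cells, and the Kit difference of leukemia 760 against 713 kept their calls in all 21. Csf1 in dHet pro-B against wt pro-B turned to 0.26 with scaling on the array median and lay between -0.24 and 0.049 when single arrays were left out (0.049 without dHet replicate 1, 0.022 without wt replicate 1). Flt3l in leukemias against dHet pro-B turned to -0.046 with scaling over probes well above background on all arrays, -0.050 with normexp, -0.057 in the authors' deposited table, -0.17 with the scan day as a block and with only the leukemia arrays of the pro-B scan day, -0.013 with leukemia 686 by its replicate 2 alone, and lay between -0.22 (without leukemia 713) and 0.41 when a mouse or array was left out. The restrictions to the pro-B scan day and to replicate 2 of leukemia 686 were added after seeing the data.

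Counts of passing probes moved by over 1.5 times as follows, and the cause was not tested. With slide as a random block (consensus correlation 0.652) they were 7230 of 22300 for leukemias against wt pro-B (13090 as reported), 4422 for leukemias against dHet pro-B (10420), 10398 for dHet pro-B against wt pro-B (6057), 4519 for leukemia 713 against leukemia 686 (1597), 2596 for leukemia 760 against leukemia 686 (1021) and 6047 for leukemia 760 against leukemia 713 (2920). With scan day as a block the last 4 were 11072, 5010, 2785 and 6578, and without the filter on dim probes, with 41174 probes tested, they were 2925, 377, 349 and 1439. Leaving out 1 mouse or array gave 8467 to 14323, 4854 to 11963, 2581 to 6961, 585 to 1967, 569 to 1826 and 1812 to 3324 in the same order of the 6 comparisons. With the replicate block no count moved by over 1.5 times (13842, 11307, 7331, 2086, 1296 and 3553). It lost no receptor call and gained Flt3 in leukemia 760 against 686. For leukemias against pro-B cells this fit also took arrays in place of mice as replicates. There Flt3 against dHet cells (adjusted p = 0.00386) and the middle Csf1r probe against wt (0.0243) and dHet cells (0.00746) passed, as they did with arrays as replicates and no block (0.0171, 0.0231 and 0.00655).

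The share of higher calls depends on the scaling: 47.2% in leukemias against wt pro-B as reported, 69.8% with the array median and 29.9% over probes detected on all arrays. For leukemias against dHet pro-B it was 41.4% and, with the median, 56.0%. For dHet pro-B against wt pro-B it was 51.3%, 63.8% and 37.8% in the same order, for leukemia 713 against 686 59.4% and 76.3% (median), and for leukemia 760 against 686 45.8%, 63.8% (median), 58.5% with quantile normalization or normexp and 60.0% in the authors' deposited table. The array median shifted the median of all probes to 0.49 in leukemias against wt pro-B. Of 69 results for named ligands, markers and pathway genes, 38 kept sign and call throughout. Arrays of leukemia replicate 1 had a higher background limit, so Csf1r at its upstream probe, Pdgfra and Pdgfrb are bounded less tightly there.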
